A study of Homo sapiens with 32 samples.

Results

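The m6A peaks called on the genes of the m6A readers and erasers themselves were compared between SETD2 wild-type, knockout and rescued kidney cell lines. The 10 genes are the erasers FTO and ALKBH5 and the readers YTHDF1, YTHDF2, YTHDF3, YTHDC1, YTHDC2, IGF2BP1, IGF2BP2 and IGF2BP3. They were chosen by name, and a peak was assigned to a gene when it overlapped the RefSeq gene body (GRCh38.p14) by at least 1 bp. They are 10 of 20037 protein-coding genes in the table, and 9 of them were among the 13420 genes with a peak in at least 1 library. Of 474004 peaks in all lists, 542 lay in these genes.

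The data are MeRIP-seq, in which RNA fragments are enriched with an antibody against m6A and compared with the Input. The ccRCC cell line 786-O and RPTEC, an hTERT-immortalised line of renal proximal tubule cells used as a surrogate for normal kidney, each came as 4 untreated lines: the WT parent, the CRISPR clones SETD2KO-1 and SETD2KO-2, and a rescued line, SETD2KO-1R, made by putting a full-length tagged SETD2 transgene into SETD2KO-1 and again derived as a clone. The term SETD2-expressing covers WT and SETD2KO-1R. Each line had 2 IP libraries, so that each cell line had 4 SETD2KO and 4 SETD2-expressing libraries, and 16 lists of peaks in all. Each knockout or rescued line is 1 clone, and nothing in the labels says that the 2 libraries of a line came from separate cultures, so p-values measure the spread between libraries, which may be technical. The lists held 25710 to 39670 peaks in 786-O and 19249 to 31207 in RPTEC, without read counts, so the depth behind a peak is unknown.

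m6A is written on RNA by the METTL3-METTL14 complex, removed by the demethylases FTO and ALKBH5, and bound by reader proteins. The cytoplasmic YTHDF proteins are best known for speeding the decay of m6A-bearing mRNA, the nuclear YTHDC1 for acting on splicing and export, YTHDC2 as an RNA helicase of germ cells, and the IGF2BP proteins for stabilising their targets. SETD2 is the methyltransferase that trimethylates H3K36 over transcribed genes, a mark that METTL14 can bind.

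The start sites of ALKBH5, YTHDC1 and IGF2BP2 carried peaks, and that of FTO did not. RefSeq start windows, from 250 bases before to 50 bases after the annotated start, were held in the table for 8 of the 10 genes as 10 windows. The window of ALKBH5 was overlapped by a peak in 15 libraries and that of YTHDC1 in 13, one of the 2 windows of IGF2BP2 in 8, and that of FTO in none. Windows overlapped in 13 or more libraries made up 2.92% of all 35116 windows and 3.74% of the 22199 windows of protein-coding genes. An empty window like that of FTO was the usual case, at 76.0% of all windows and 69.0% of those of protein-coding genes. YTHDF1 was overlapped in 6 libraries, one YTHDF2 window in 4 and IGF2BP3 in 3, while the other YTHDF2 window, the other IGF2BP2 window and the YTHDC2 window were overlapped in none. These 4 windows, 3 with peaks and 1 without, are printed on the strand of the gene, 5′ to 3′ (GRCh38.p14), with each GGACT, a common form of the m6A motif, and its reverse complement AGTCC in capitals. The ALKBH5 window is chr17:18183578-18183877 on the plus strand, the YTHDC1 window chr4:68350041-68350340 on the minus strand, the IGF2BP2 window chr3:185824993-185825292 on the minus strand and the FTO window chr16:53703906-53704205 on the plus strand.
ALKBH5: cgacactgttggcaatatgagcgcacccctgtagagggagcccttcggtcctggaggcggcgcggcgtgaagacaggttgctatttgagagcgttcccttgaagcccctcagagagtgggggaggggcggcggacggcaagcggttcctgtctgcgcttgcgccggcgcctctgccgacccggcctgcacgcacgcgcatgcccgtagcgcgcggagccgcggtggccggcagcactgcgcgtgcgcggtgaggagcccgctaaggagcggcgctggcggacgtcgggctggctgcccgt
YTHDC1: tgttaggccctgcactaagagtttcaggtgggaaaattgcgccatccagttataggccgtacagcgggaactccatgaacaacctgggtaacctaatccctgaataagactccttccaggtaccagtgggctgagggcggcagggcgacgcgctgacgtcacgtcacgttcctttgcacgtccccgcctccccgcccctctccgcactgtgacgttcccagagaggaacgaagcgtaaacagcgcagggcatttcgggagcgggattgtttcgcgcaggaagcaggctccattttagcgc
IGF2BP2: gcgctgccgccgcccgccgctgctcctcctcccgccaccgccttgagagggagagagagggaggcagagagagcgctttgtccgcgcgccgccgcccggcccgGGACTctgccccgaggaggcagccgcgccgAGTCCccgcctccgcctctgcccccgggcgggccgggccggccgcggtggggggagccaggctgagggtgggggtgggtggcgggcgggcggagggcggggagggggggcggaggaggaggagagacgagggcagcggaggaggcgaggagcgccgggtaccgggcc
FTO: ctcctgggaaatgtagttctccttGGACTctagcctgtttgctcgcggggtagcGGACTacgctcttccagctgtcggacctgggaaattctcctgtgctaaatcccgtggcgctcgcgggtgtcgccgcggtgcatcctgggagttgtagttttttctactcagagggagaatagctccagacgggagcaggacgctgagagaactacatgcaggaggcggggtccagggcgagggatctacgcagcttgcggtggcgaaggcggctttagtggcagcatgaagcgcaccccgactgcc

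The letters GGACT occurred on either strand in 44.2% of all windows. The FTO window, without a peak, held 2 on the sense strand, the IGF2BP2 window held 1 on each strand, and the ALKBH5 and YTHDC1 windows held none. The GC content was 71.0% in the ALKBH5 window, 58.3% in YTHDC1, 80.7% in IGF2BP2 and 60.0% in FTO, with a median of 58.7% over all windows. The lists carry no strand and the window is mostly upstream of the gene, so the RNA that gave these peaks cannot be told from them. In the 15 libraries with a peak over the ALKBH5 window the summit of the highest-ranked peak lay from 385 bases upstream to 519 bases downstream of the annotated start, with a median of 17 bases downstream. For YTHDC1 the summits lay from 52 bases upstream to 166 bases downstream over 13 libraries, with 4 downstream of the start. For IGF2BP2 they lay between positions -1304, outside the printed window, and 19 relative to the start over 8 libraries, with 2 summits downstream of the start.

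Per length of gene body, the peaks were densest on the YTHDF genes, YTHDC1 and ALKBH5, and, of the 9 genes with a peak, sparsest on FTO. By number per library, FTO had a mean of 4.69 peaks, below only IGF2BP2 with 6.44. Per 100 kb of gene body, YTHDF2 had 11.7 ± 3.46 peaks (SD, n = 16 libraries), YTHDC1 10.4 ± 3.89, YTHDF1 10.3 ± 3.89, YTHDF3 9.47 ± 2.37 and ALKBH5 7.42 ± 3.55. IGF2BP2 followed with 3.54 ± 1.25, IGF2BP3 with 2.89 ± 1.04, YTHDC2 with 2.30 ± 1.17 and FTO, whose gene body is 417979 bp long, with 1.12 ± 0.785. Neighbours within the first 5 and within IGF2BP2, IGF2BP3 and YTHDC2 differed by less than their SDs over libraries. The step from ALKBH5 to IGF2BP2, 3.88 peaks per 100 kb, was larger than the SDs on either side. That from YTHDC2 to FTO, 1.18, was about equal to the YTHDC2 SD of 1.17. These SDs take in both cell lines and both SETD2 states. Gene bodies include introns, and the median over the 13420 genes was 4.07 peaks per 100 kb.

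No peak was listed in IGF2BP1 (chr17:48996558-49056145) in any library, and it entered no test. The oncofetal IGF2BP1 was the one gene of the 10 without a peak. A missing peak can reflect unmethylated RNA or little RNA, which the lists cannot tell apart. The remaining genes were widely called: ALKBH5, the 3 YTHDF genes, YTHDC1, IGF2BP2 and IGF2BP3 had a peak in all 16 libraries, which 34.5% of the 13420 genes did. FTO and YTHDC2 had one in 15 each, missing in RPTEC SETD2KO-2 replicate 2 for FTO and in RPTEC SETD2KO-1R replicate 1 for YTHDC2. Over the 16 libraries the number of peaks ran from 1 to 4 in ALKBH5, 1 to 3 in YTHDF1, 2 to 6 in YTHDF2, 2 to 6 in YTHDF3, 2 to 7 in YTHDC1, 0 to 3 in YTHDC2, 2 to 10 in IGF2BP2 and 2 to 9 in IGF2BP3.

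**Figure D1:**
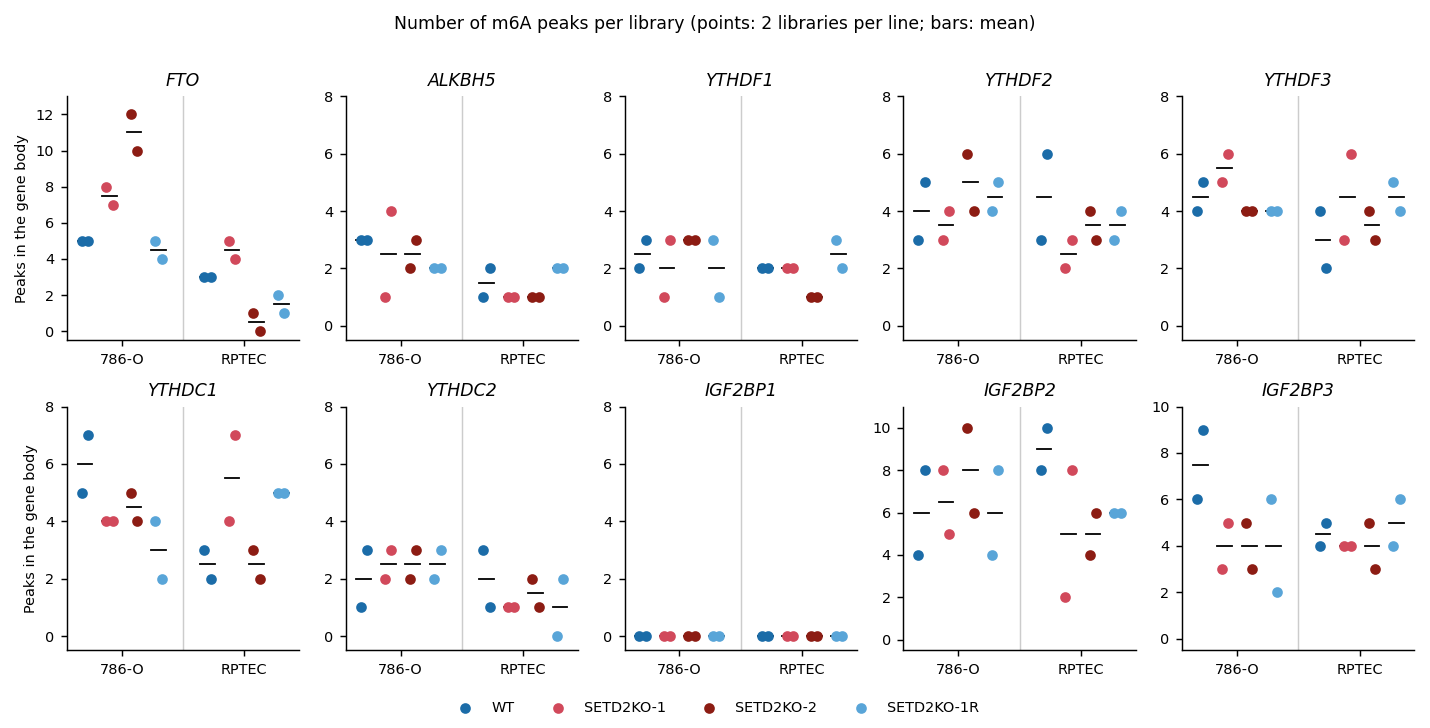
Number of peaks in the gene body (y axis) of each gene in each library, with 2 points per line and a bar at their mean, 786-O left and RPTEC right in each panel. FTO in 786-O is the panel in which the SETD2KO points, 7 to 12, lie above the SETD2-expressing points, 4 to 5, and IGF2BP1 stays at 0 throughout.

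To find where the modification lay, the peaks of all 16 libraries were merged into regions where they overlapped, and a library was counted as calling a region if one of its peaks overlapped it by at least 1 bp. The 9 genes held 100 regions. Of these, 37 were called in a single library and 8 in all 16, against 37.2% and 4.25% of all 99258 regions. The 8 regions called throughout lay in YTHDF1 (1), YTHDF2 (1), YTHDF3 (2), IGF2BP2 (2) and IGF2BP3 (2), and none lay in an eraser or in a YTHDC gene.

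The 3 YTHDF paralogs each carried 1 broad region called in all 16 libraries. In YTHDF1 it was chr20:63202447-63204078, 1632 bp long at 62.2% of the gene body, in YTHDF2 chr1:28742152-28743844, 1693 bp long at 19.2%, and in YTHDF3 on chromosome 8 a region of 1723 bp at 41.2% from the lower-coordinate end. Regions called in all 16 libraries had a median width of 1146 bp, and 74.0%, 76.2% and 77.1% of them were narrower than these 3. The summit of the highest-ranked peak moved along the broad regions, over 1278 bp in YTHDF1, 1301 bp in YTHDF2 and 730 bp in YTHDF3. The gene table has no exons, so the exon that holds a region was not analysed here.

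Each of the 3 genes also had a narrow region of high rank towards its far end. To compare peaks between lists, each was given the rank of its score within its own list, from 0 to 100. In YTHDF3 a region of 648 bp at 93.1% of the gene body was called in all 16 libraries with a median rank of 97.04, and its summits lay within 31 bp of each other. In YTHDF2 the region chr1:28768648-28769107, at 97.3%, was called in 13 libraries with a median rank of 93.3 and summits within 21 bp. In YTHDF1 the region chr20:63196708-63197013, at 93.1%, had a median rank of 96.0 and summits within 38 bp, but was called in 5 libraries only, all of them 786-O. The broad regions of the same 3 genes had lower median ranks, 69.4 in YTHDF1, 71.9 in YTHDF2 and 77.5 in YTHDF3. Regions at the other end also ranked high. The YTHDF1 start region, called in 6 libraries, had a median rank of 91.04 and the highest single rank of the gene, 98.5, and the region at the lower-coordinate end of YTHDF3, called in 14, had a median of 90.8 and reached 99.4.

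The IGF2BP genes combined a few shared regions with many that were called once. IGF2BP2 (chr3:185643130-185825042) held 27 regions, of which 13 were called in 1 library. Its 2 regions called in all 16 libraries were the start region of 2289 bp, which reaches 1619 bp beyond the annotated start, and chr3:185689563-185689896 at 74.4% of the gene body, only 334 bp long with summits within 91 bp. Of the regions called in all 16 libraries, 0.0711% were narrower than the latter. Another region near its 3′ end, chr3:185645255-185645924, was called in 13 libraries with a median rank of 91.8. IGF2BP3 (chr7:23310209-23470491) held 14 regions, and the 2 called in all libraries were chr7:23414697-23416065 and chr7:23397856-23399497, at 34.4% and 44.8%. Of the 103 peaks counted for IGF2BP2, 6 also overlapped another annotated gene.

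In YTHDC1 (chr4:68310387-68350090), 5 of 7 regions were called in 8 or more libraries and none in all 16. The most called were the start region chr4:68349739-68350195 and chr4:68322507-68323148, in 13 libraries each. YTHDC2 (chr5:113513694-113595284) held 3 regions, led by chr5:113557880-113559897, called in 14 libraries. ALKBH5 (chr17:18183828-18209954) held 6, led by the start region chr17:18182977-18184498, called in 15 libraries, and its 5 others in at most 5.

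**Figure D2:**
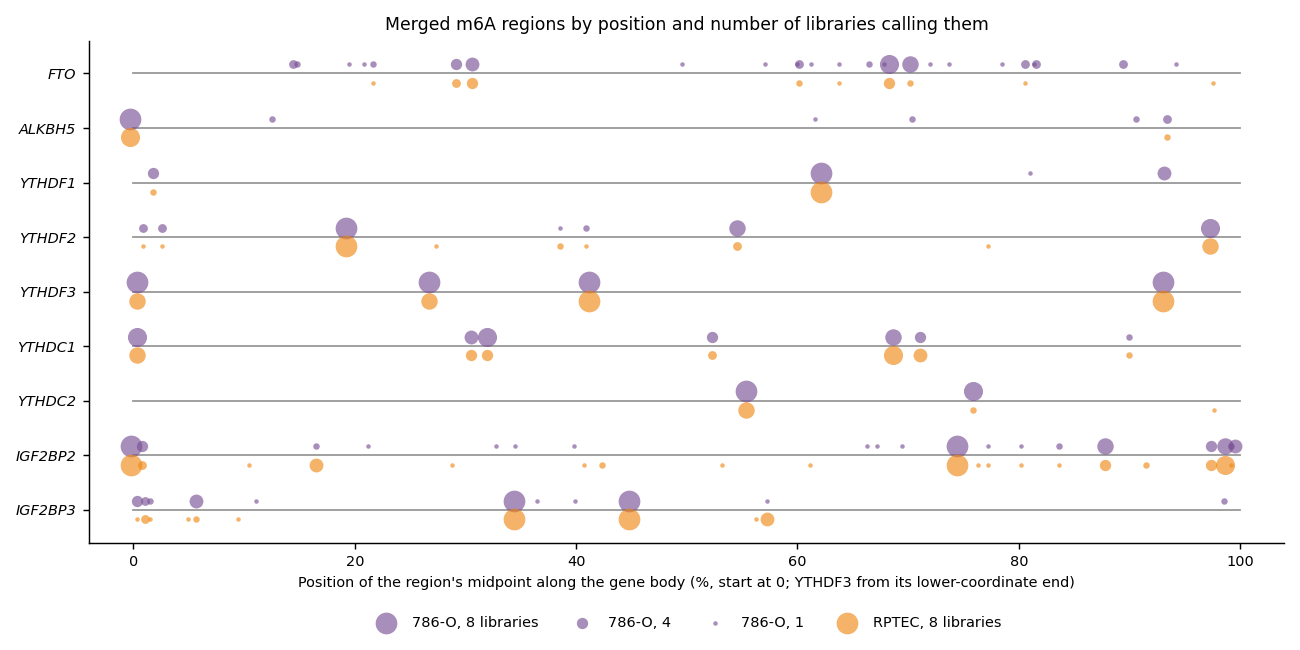
Midpoint of each merged region along the gene body (x axis, in percent from the start, for YTHDF3 from the lower-coordinate end), with a circle whose area grows with the number of libraries calling it, 786-O above and RPTEC below each line. The large circles of YTHDF1, YTHDF2, YTHDF3, IGF2BP2 and IGF2BP3 mark the 8 regions called in all 16 libraries, and the 26 FTO regions are small and spread between 14.4% and 97.5%.

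SETD2, the targeted gene, had 8 and 10 peaks in 786-O WT, 5 and 10 in SETD2KO-1, 5 and 4 in SETD2KO-2, and 7 and 9 in SETD2KO-1R. In RPTEC it had 7 and 10, 6 and 4, 4 and 5, and 11 and 10, with all SETD2KO libraries below all SETD2-expressing ones. A knocked-out gene can still give a transcript that carries m6A, so these numbers do not check the labels. Among the renal epithelial markers, PAX8, PAX2, KRT8 and KRT18 had a peak in all 16 libraries, and LRP2 and AQP1, which define the mature proximal tubule, in none. CUBN, of the same tubule segment, had a peak in 1 library of 786-O, and CDH16 in 2 of 786-O and 1 of RPTEC. Of the 5 ccRCC markers, EPAS1 and VEGFA had a peak in all 16 libraries, VIM in 8 of 786-O and 6 of RPTEC, COXFA4L2 in 1 of 786-O and CA9 in none. Of 8 markers of other cell types, PTPRC, CD3E, PECAM1, DES and ALB, of leukocytes, endothelium, muscle and liver, had none, while CD68, a macrophage marker, had a peak in 8 libraries of 786-O and 7 of RPTEC, and GFAP, a glial marker, in 2 and 6. The summed peaks of these 8 were 1 to 3 in every library. Among the markers reported here, VEGFA had fewer peaks in 786-O SETD2KO without overlap, a mean of 2.75 against 5.75, KRT18 a lower top rank there, and CDH5, an endothelial marker, was called in the 4 SETD2-expressing RPTEC libraries alone. Over all genes tested, 0.901% had fewer peaks and 4.68% another top rank in 786-O SETD2KO without overlap, and 1.41% and 4.08% in RPTEC. The part of these markers in the results was not tested.

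Whether SETD2 status changes the peaks on these genes was asked first by their number per gene. FTO, the first m6A demethylase to be described, was the one gene of the 10 whose 786-O groups did not overlap. The libraries of 786-O listed 5 and 5 FTO peaks in WT, 8 and 7 in SETD2KO-1, 12 and 10 in SETD2KO-2, and 5 and 4 in SETD2KO-1R. Both knockout clones thus lay above the parent and the rescued line, and the rescued line lay below the SETD2KO-1 clone it came from. The means were 9.25 ± 2.22 in SETD2KO and 4.75 ± 0.5 in SETD2-expressing libraries (SD, n = 4 each), a difference of 4.5 peaks with p = 0.0286 by the exact two-sided permutation test over 70 arrangements, the smallest p that 4 libraries against 4 allow. Over all genes tested the adjusted p was 1. In this cell line 1.52% of the 12430 genes tested had more peaks in SETD2KO without overlap between groups and 0.901% had fewer, and 1 gene of 10 is given as a description of FTO. The median difference over the 9 genes with a peak was 0.25 peaks, against 0 over all genes tested.

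FTO is a long gene, at 417979 bp, and was set beside other long genes. Among genes of at least 100 kb, 90 of 2427, or 3.71%, had more peaks in SETD2KO without overlap and 39, or 1.61%, had fewer. There were 112 genes of any length with a difference at least that of FTO. On chromosome 16, where FTO lies, 15 of 604 genes, or 2.48%, had more peaks in 786-O SETD2KO and 1 had fewer. The authors mention, without showing data, modestly higher FTO and ALKBH5 expression in 786-O after SETD2 loss. The part of gene length, chromosome or RNA level in the FTO difference was not tested. With all lists cut to one common number of peaks the FTO means fell to 4 and 2, still without overlap (exact permutation p = 0.0286). Divided by the length of each list, a scaling added after seeing the data, FTO groups still did not overlap, with 2.72 against 1.52 peaks per 10000 listed peaks. When the lower-scoring 50% of each list was dropped, the means were 3 and 1.5 and the groups overlapped (exact permutation p = 0.171). They also overlapped at 5 peaks when peaks shorter than 288 bp were left out, a choice made after seeing the data, with a difference of 4 (exact permutation p = 0.0571).

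The additional FTO peaks did not settle in one place. FTO held 26 regions, none of them within 1000 bp of either end of the gene body, 53703963 to 54121941 on chromosome 16. SETD2KO libraries of 786-O called 21 of them and SETD2-expressing libraries 12, with 8 in common. There were 11 regions called in 786-O SETD2KO libraries and in no other library, and 8 of these were called once, and 4 called in 786-O SETD2-expressing libraries and no other. Of all 99258 regions, 13.5% and 12.5% were of these kinds. The other 3, chr16:53764067-53764499, chr16:54044410-54045079 and chr16:54077504-54077847, were each called in 3 of the 4 SETD2KO libraries and in none of the 12 others. Within 786-O, 2.19% of all 78921 regions were called in exactly 3 more SETD2KO than SETD2-expressing libraries, and these 3 were the only such regions among the 87 on the 10 genes. Their median ranks were 26.3, 27.99 and 27.99, below the middle of the lists. The most called region, chr16:53988899-53989504, was found in 4 SETD2KO and 3 SETD2-expressing libraries of 786-O and in 4 of RPTEC. Of the 75 FTO peaks, 5 also overlapped another annotated gene.

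**Figure D3:**
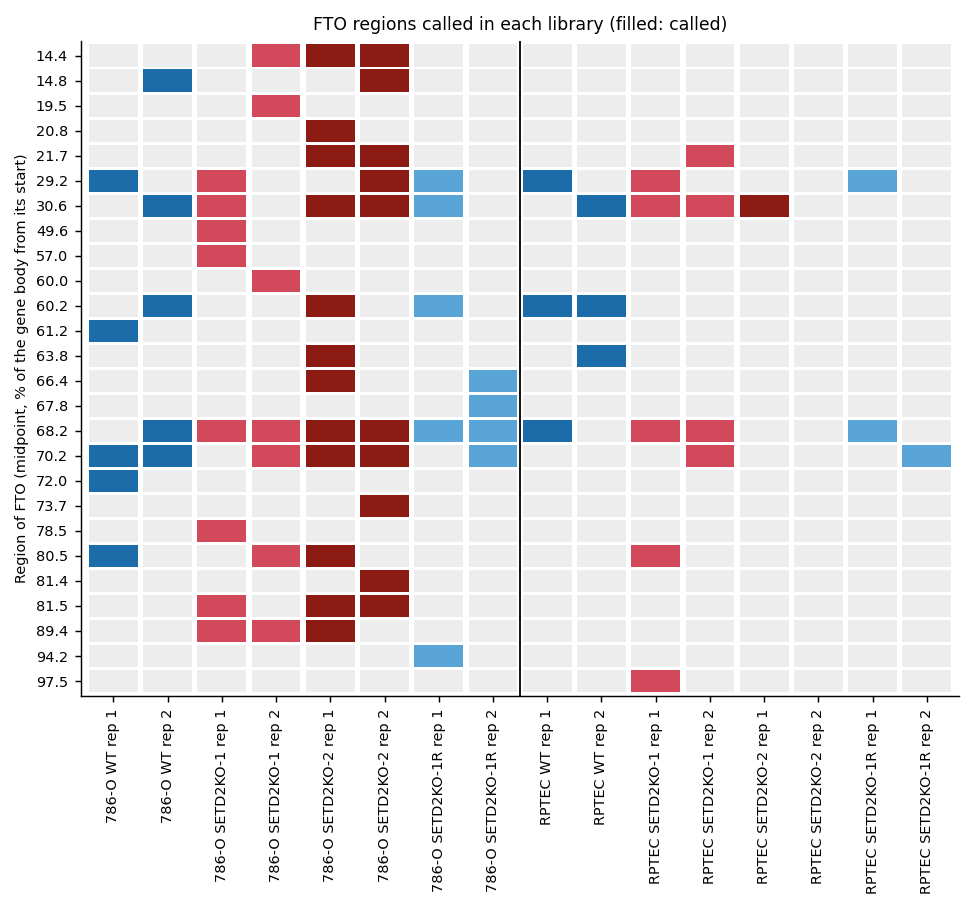
Calls of the 26 FTO regions (rows, by midpoint in percent of the gene body) in the 16 libraries (columns, coloured by line; grey is no call). The 786-O SETD2KO columns hold the most filled cells, in 21 different rows, and the 2 columns of RPTEC SETD2KO-2 hold 1 in all.

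In RPTEC the 2 knockout clones went opposite ways at FTO. The libraries listed 3 and 3 peaks in WT, 5 and 4 in SETD2KO-1, 1 and 0 in SETD2KO-2, and 2 and 1 in SETD2KO-1R. SETD2KO-1 lay above all SETD2-expressing libraries, as it did for 3.8% of genes, and SETD2KO-2 below WT, and the rescued line again lay below SETD2KO-1. The means of the pooled groups were 2.5 ± 2.38 in SETD2KO and 2.25 ± 0.957 in SETD2-expressing libraries (SD, n = 4; exact permutation p = 1). The SETD2KO difference was 4.25 peaks larger in 786-O than in RPTEC, which the exact permutation of SETD2 status within each cell line did not separate from 0 (4900 arrangements, p = 0.0849, adjusted p = 1 over all genes).

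In both cell lines the rescued line had 3 FTO peaks fewer than SETD2KO-1 on average, 4.5 against 7.5 in 786-O and 1.5 against 4.5 in RPTEC. With 2 libraries against 2, an exact permutation p cannot fall under 0.333, and both comparisons gave that value. Among the other genes, YTHDF3 in 786-O also lay lower in the rescued line without overlap, 4 against 5.5. ALKBH5 in RPTEC lay higher there, 2 against 1. No share of all genes is given for this small comparison, so it describes FTO only. Against WT alone, the 786-O SETD2KO libraries had 4.25 more FTO peaks (exact permutation p = 0.133, where 0.0667 is the smallest p possible), without overlap, as did 3.58% of genes.

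No other gene separated all SETD2KO from all SETD2-expressing libraries by number in either cell line. In RPTEC, 1.01% of the 12185 genes tested had more peaks in SETD2KO without overlap and 1.41% fewer, and none of these was an m6A reader or eraser. The median difference over the 9 genes with a peak was -0.75 peaks in RPTEC, against -0.25 over all genes tested. ALKBH5, the second eraser, had 1 peak in each RPTEC SETD2KO library and 1, 2, 2 and 2 in the SETD2-expressing ones, a difference of -0.75 (exact permutation p = 0.143). Without RPTEC WT replicate 1, the one SETD2-expressing library with 1 peak, the ALKBH5 groups no longer overlapped. No share of all genes is given for that setting. In 786-O its means were 2.5 in both groups.

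IGF2BP3, an oncofetal RNA-binding protein, had 4 peaks on average in 786-O knockouts and 7.5 in WT, with the rescued line overlapping both. WT listed 6 and 9 peaks, SETD2KO-1 3 and 5, SETD2KO-2 5 and 3, and SETD2KO-1R 6 and 2. The SETD2KO libraries all lay below WT, with a difference of -3.5 peaks (exact permutation p = 0.0667, the smallest possible with 4 libraries against 2). In this smaller comparison 5.28% of genes had fewer peaks in SETD2KO without overlap. The 2 libraries of SETD2KO-1R spanned the whole SETD2KO range, and against SETD2-expressing libraries the difference was -1.75 (exact permutation p = 0.429). Leaving out SETD2KO-1R replicate 2 separated the groups, and no share of all genes is given for that setting.

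For IGF2BP2, its paralog, the top rank in RPTEC is given by library, where the top rank is the rank of the highest-scoring peak in the gene and is 0 without a peak. The top ranks were 98.2 and 99.3 in WT, 71.5 and 91.8 in SETD2KO-1, 89.95 and 96.6 in SETD2KO-2, and 97.1 and 96.4 in SETD2KO-1R. SETD2KO-2 replicate 2, at 96.6, overlapped the rescued line, and all other SETD2KO values lay below every SETD2-expressing one. The means were 87.4 ± 10.97 and 97.7 ± 1.30 (SD, n = 4), a difference of -10.3 with an exact permutation p of 0.0571 and an adjusted p of 0.9, so it was not called. With all lists cut to one common number of peaks the means were 83.3 and 96.6 (exact permutation p = 0.0857). Its number of peaks was 5 ± 2.58 and 7.5 ± 1.91 in the same libraries (exact permutation p = 0.286). In 786-O its top rank differed by -1.01 (exact permutation p = 0.857).

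By top rank none of the 10 genes separated SETD2KO from SETD2-expressing libraries in 786-O or RPTEC, where 4.68% and 4.08% of genes tested did so in either direction. The top rank of FTO in 786-O was 87.7 ± 9.33 in SETD2KO and 85.3 ± 10.2 in SETD2-expressing libraries (SD, n = 4), a difference of 2.43 (exact permutation p = 0.714). YTHDF3 kept top ranks between 94.8 and 99.6 in all 16 libraries, the tightest range among the genes with a peak, and YTHDC1 lay between 86.7 and 98.3.

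YTHDF1 and YTHDC2 varied more. The top rank of YTHDF1 in 786-O was 92.3 and 96.0 in WT, 65.0 and 80.6 in SETD2KO-1, 98.5 and 96.3 in SETD2KO-2, and 93.4 and 84.4 in SETD2KO-1R. The 2 clones lay on opposite sides of the SETD2-expressing libraries, SETD2KO-1 below, as for 5.98% of genes, and SETD2KO-2 above, as for 7.43%, and the pooled difference was -6.43 (exact permutation p = 0.6). The narrow region near the 3′ end of the gene was called in 1 library each of WT, SETD2KO-1 and SETD2KO-1R and in both of SETD2KO-2. For YTHDC2 the 786-O top ranks were 84.8 and 84.5 in WT, 61.8 and 71.7 in SETD2KO-1, 28.0 and 77.9 in SETD2KO-2, and 59.1 and 67.1 in SETD2KO-1R, so that WT lay above all other lines, the rescued line included. For 9.88% of genes the SETD2KO libraries lay below WT by top rank without overlap.

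**Figure D4:**
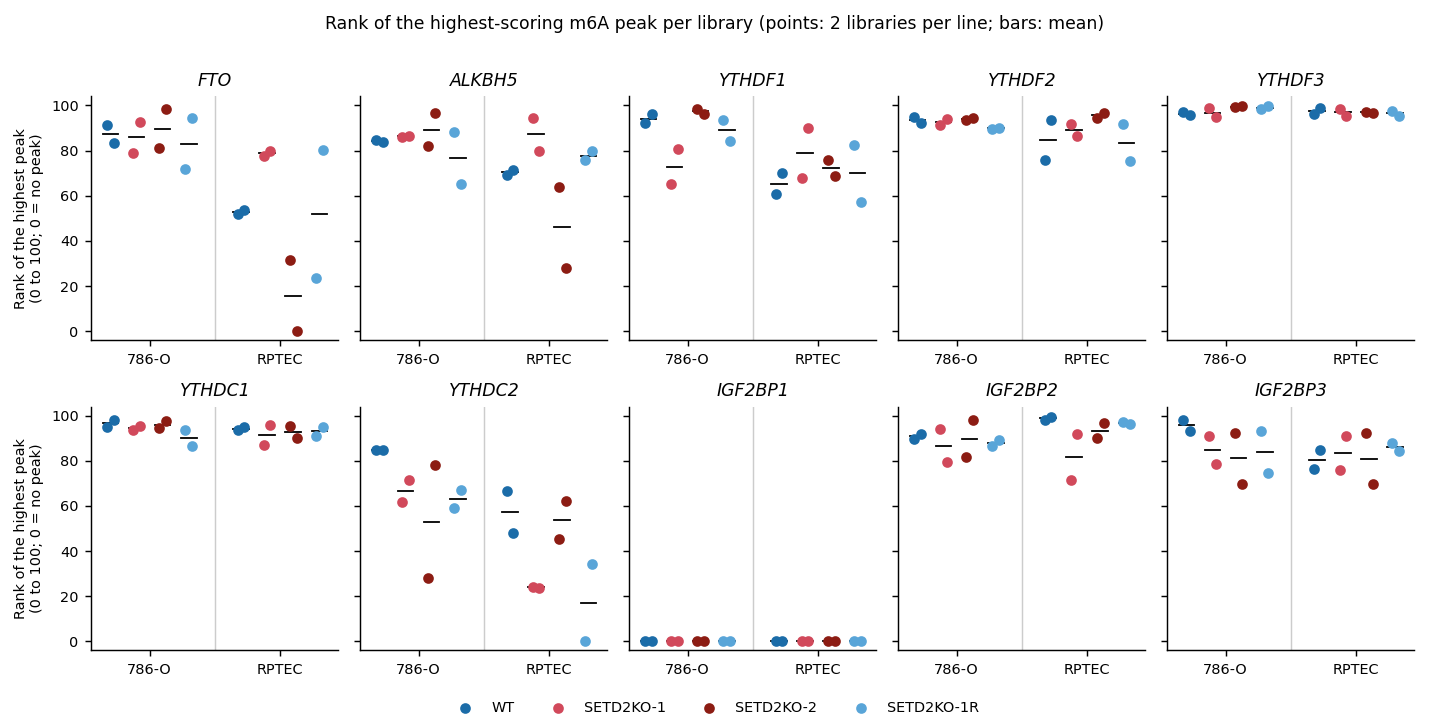
Rank within its list (y axis, 0 to 100, with 0 for no peak) of the highest-scoring peak in each gene and library, 2 points per line and a bar at their mean, 786-O left and RPTEC right. YTHDF3 stays between 94.8 and 99.6, while FTO in RPTEC ranges from 0 to 80.2 and YTHDC2 in RPTEC from 0 to 66.7.

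One region on these genes was called by SETD2 status in 786-O. With the peaks of the 8 libraries of that cell line merged, 1 of the 87 regions in the 10 genes had a call in every one of the 4 SETD2-expressing libraries but in no SETD2KO library, against 0.147% of all 78921 regions, and none was specific to the 4 SETD2KO libraries, against 0.475%. It was chr4:68321424-68322306, 883 bp at 71.1% of the YTHDC1 gene body. Its peaks were 667 and 795 bp long in WT and 325 and 338 bp long in SETD2KO-1R, with ranks of 26.5, 29.1, 5.22 and 16.9. The ranks of the rescued line are below those of WT. In RPTEC the same region was called in 3 of 4 SETD2KO and 2 of 4 SETD2-expressing libraries, with ranks from 0.472 to 15.7. It was not counted when the lists were cut to their upper 50% or to one common number of peaks, or when a peak had to cover at least 50% of the region.

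In RPTEC none of 69 regions was called by SETD2 status in either direction, where 0.263% of 68428 regions were called in all SETD2KO libraries alone and 0.212% in all SETD2-expressing libraries alone.

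FTO had more peaks in 786-O than in RPTEC, a call that depended on how the lists were cut. Over all lines, 786-O had 4 to 12 FTO peaks per library with a median of 6, and RPTEC 0 to 5 with a median of 2.5. The means were 7 ± 2.83 and 2.375 ± 1.69 (SD, n = 8), a difference of 4.625 peaks, with an adjusted p of 0.0318 by the exact two-sided permutation test and Benjamini-Hochberg adjustment over 13420 genes. At this threshold of 0.05, 3.44% of the genes had more peaks in 786-O. The ranges overlapped between 4 and 5 peaks. By SETD2 status the means were 9.25 in 786-O and 2.5 in RPTEC for SETD2KO, and 4.75 and 2.25 for SETD2-expressing libraries, so most of the pooled difference lay in the knockouts. The 786-O lists were also longer, and with all lists cut to one common number of peaks the difference was 1.625 (exact permutation, adjusted p = 0.349). With the upper 50% of each list it was 1.375 (exact permutation, adjusted p = 0.344). In the same permutation test the adjusted p was 0.0528 per 10000 listed peaks, 0.0709 with peaks of at least 288 bp, without peaks in 2 or more genes 0.0506, and without RPTEC SETD2KO-2 replicate 2, the library with no FTO peak, 0.0643. The top rank of FTO was 86.5 ± 9.14 in 786-O and 49.8 ± 29.6 in RPTEC (SD, n = 8; exact permutation, adjusted p = 0.0476), a call made for 3.82% of genes with the higher rank in 786-O. It was lost in 3 of the other settings, with an adjusted p up to 0.103, and on leaving out any single 786-O library (adjusted p from 0.0565 to 0.0876) or any of 3 RPTEC libraries, both of SETD2KO-2 or SETD2KO-1R replicate 1 (0.0546 to 0.0602). The highest of more peaks is also higher by construction, so the 2 measures are not independent.

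No gene of the 10 separated the cell lines without overlap, by number (1.87% of genes did) or by top rank (2.16%). All 9 genes with peaks had a higher mean number in 786-O, where the lists held 262541 peaks against 211463 in RPTEC. The median difference over these 9 was 0.625 peaks and 4.28 rank points, against 0.25 and 3.75 over all genes. ALKBH5 had 2.5 against 1.375 peaks (adjusted p = 0.178) and YTHDC2 2.375 against 1.375 (adjusted p = 0.318), both by the exact permutation test. By top rank YTHDF1 stood at 88.3 ± 11.2 against 71.6 ± 10.8 (SD, n = 8; exact permutation, adjusted p = 0.107) and YTHDC2 at 66.9 ± 18.4 against 38.03 ± 22.1 (exact permutation, adjusted p = 0.121). These did not pass the threshold, except that YTHDF1 passed it by top rank without 786-O SETD2KO-1 replicate 1. IGF2BP2 alone had a lower mean top rank in 786-O, by -3.87 (exact permutation, adjusted p = 0.664). No region on the 10 genes was called in all 8 libraries of one cell line and none of the other, where 0.172% of 99258 regions were called in 786-O alone and 0.152% in RPTEC alone.

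The other genes of the m6A pathway were read the same way. Of 26 writers, binders and partners, all 26 had a peak in 786-O and 23 in RPTEC, and by number none separated SETD2KO from SETD2-expressing libraries in either cell line. The median difference was 0 in 786-O and -0.25 in RPTEC, with MAT2A included at 0 as the last of 27 genes. By top rank 1 separated in each cell line, a share near that of all genes, 4.68% and 4.08%. UPF1, a helicase of nonsense-mediated decay, had lower ranks in 786-O SETD2KO, 95.01 to 96.8 against 97.4 to 98.9, and METTL16, a methyltransferase of U6 and MAT2A RNA, in RPTEC SETD2KO, 28.3 to 55.4 against 60.6 to 84.1. METTL3, the catalytic writer, had a single peak in 3 libraries, 786-O WT replicate 1, 786-O SETD2KO-1 replicate 1 and RPTEC SETD2KO-1R replicate 1. No peak was listed in MAT2A, which makes the methyl donor.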

How the data were processed

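MeRIP-seq was analysed from the peak lists of 16 IP libraries, 1 list per library. Per the labels and methods, the authors aligned reads to hg38 with STAR, quantified them with HTSeq, scaled them by spiked-in E. coli RNA and ran MACS2 on each IP against its Input to call peaks, and the deposited value of a peak is a whole-number score whose scale is not stated. The deposited offset of the summit gave summit positions. The remaining value columns are 0 throughout. The lists hold no reads, no strand and no depth, and a gene that is little transcribed, or whose Input is high, may have no peak. The 16 Inputs have no list here.

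Scores were converted to ranks inside each list, so a rank says nothing of the size of an enrichment between libraries. Genes came from the RefSeq table of GRCh38.p14 (gene bodies; strand from the start windows, which hold no entry for YTHDF3 and IGF2BP1). The number of peaks and the top rank per gene were compared by exact two-sided permutation tests over libraries, which ignore that SETD2 status differs between lines. Counting each line once leaves 3 groupings and a smallest share of 0.333. Genes were called between SETD2 groups when the groups did not overlap, and between cell lines at an adjusted p under 0.05 (Benjamini-Hochberg over all protein-coding genes with a peak). The members and gene lists were chosen with earlier results of these data known. The genes named were the 10 members, regions present throughout one group and absent from its counterpart, and the most called regions of each gene. The FTO regions called in 3 libraries, the markers given with values and the regions of high rank were chosen after their values were seen.

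Alternatives were the upper 50% of each list, the same number of peaks per library (19249), an overlap of 50 bp, midpoints, peaks of 1 gene only, regions merged within 100 bp or covered by 50%, each clone alone, WT alone, a replicate block, and leaving out each library in turn. After seeing the data, 2 were added: peaks per 10000 of the list, and peaks of at least 288 bp. A marker gene is not reported here. The steps were tested on simulated data, and gene counts matched bedtools 2.31.1 in 2 libraries. Calculations used Python 3.11.15, NumPy 2.4.6, SciPy 1.17.1 and Matplotlib 3.10.9.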

Additional observations from a re-analysis of the deposited data

Results flagged for a closer look

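Of 71 groups of 4 libraries with some spread, 7 held a library far from the others, all by number of peaks and all with the 3 others at the same count, so a difference of 1 or 2 peaks was enough. The rule is set to flag about 1 in 20 by chance. A group of 3 equal counts and 1 other is always flagged, so the 7 cannot be set against that rate. In 786-O these were YTHDF1 in SETD2KO-1 replicate 1 with 1 peak against 3, YTHDC1 in SETD2KO-2 replicate 1 with 5 against 4, FTO in SETD2KO-1R replicate 2 with 4 against 5, and YTHDF3 in WT replicate 2 with 5 against 4. In RPTEC they were YTHDC2 in SETD2KO-2 replicate 1 with 2 peaks against 1, ALKBH5 in WT replicate 1 with 1 against 2, and YTHDF1 in SETD2KO-1R replicate 1 with 3 against 2. None of the 10 genes differed between the cell lines in its SETD2KO difference after adjustment over all genes.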

How the results depend on the processing

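The number of genes without overlap in 786-O, 1 as reported, was 0 with the upper 50% of each list and 0 with peaks of at least 288 bp, and 2 against WT alone, FTO higher and IGF2BP3 lower. Leaving out 1 library gave 1 to 2, with 2 (FTO and IGF2BP3) without 786-O SETD2KO-1R replicate 2. In RPTEC, 0 as reported, it was 1 with SETD2KO-1 alone (FTO higher), 1 with SETD2KO-2 alone (YTHDF1 lower) and 0 to 1 with a library left out (ALKBH5 without RPTEC WT replicate 1). By top rank, 0 in both cell lines as reported, 786-O gave 1 with SETD2KO-1 alone (YTHDF1 lower), 1 with SETD2KO-2 alone (YTHDF1 higher), 2 against WT alone (YTHDC2 and IGF2BP3 lower) and 0 to 1 with a library left out (IGF2BP3 without 786-O SETD2KO-1R replicate 2). RPTEC gave 2 with SETD2KO-1 alone (ALKBH5 higher, IGF2BP2 lower), 2 with SETD2KO-2 alone (ALKBH5 lower, YTHDF2 higher), 1 against WT alone (IGF2BP2 lower) and 0 to 1 with a library left out (IGF2BP2 without RPTEC SETD2KO-2 or SETD2KO-1R replicate 2). With each clone alone or against WT alone, 6.15% to 8.87% of all genes tested in 786-O and 7.07% to 7.91% in RPTEC did not overlap by number in either direction, and 12.9% to 17% and 12.7% to 14% by top rank. For settings with a library left out, no share of all genes is given. Between the cell lines the counts stayed at 0 under every alternative run.

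Of regions called in 786-O SETD2KO libraries alone, 0 as reported, 1 was found with SETD2KO-1 alone (FTO), 4 with SETD2KO-2 alone (3 in FTO, 1 in IGF2BP2) and 0 to 1 with a library left out, each time in FTO (without 786-O SETD2KO-1 replicate 1, SETD2KO-1 replicate 2 or SETD2KO-2 replicate 2). Of regions called in 786-O SETD2-expressing libraries alone, 1 as reported, 0 were found with the upper 50% of each list, 0 with the same number of peaks, 0 with regions covered by at least 50%, and 2 against WT alone (ALKBH5 and YTHDC1). In RPTEC, 0 as reported on either side, SETD2KO libraries alone gave 1 with SETD2KO-1 alone (YTHDF3) and 0 to 1 with a library left out (YTHDF3 without RPTEC SETD2KO-2 replicate 2). SETD2-expressing libraries alone gave 1 with SETD2KO-1 alone (IGF2BP2), 2 against WT alone (FTO and YTHDF2) and 0 to 1 with a library left out (IGF2BP2 without RPTEC SETD2KO-2 replicate 2, YTHDF2 without RPTEC SETD2KO-1R replicate 1). Settings with fewer libraries make separation easier by construction. No share of all regions is given for them, so their region counts cannot be set against a background. Where no construction shows it, the cause was not tested. For libraries of different lines that share a replicate number, the correlations of their deviations ran from -0.191 to 0.375 in 786-O and -0.353 to 0.325 in RPTEC. In each cell line 1 of 6 pairs of lines was over 0.1. With a replicate block the counts of genes without overlap were 1 in 786-O and 0 in RPTEC by number, and 0 in both by top rank.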
